A study of Saccharomyces cerevisiae with 5 samples.

Results

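The genes of lysine synthesis were followed in budding yeast, Saccharomyces cerevisiae, with and without the RNA-binding protein Vts1. The set holds 9 genes, the 8 genes of the alpha-aminoadipate pathway LYS20, LYS21, LYS4, LYS12, LYS2, LYS5, LYS9 and LYS1 and the gene of its activator, LYS14. They were chosen by gene symbol in the platform annotation, from 5656 genes that the probe sets of the array name singly, and each of the 9 had 1 probe set of its own. The set was picked with its differences between deletion and wild type already known, so these differences are given as a description of the arrays, with a standard error and no p-value.

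The study measured total RNA, labelled with biotin, on 5 single-colour Affymetrix arrays. The deletion strain, on 3 arrays, was a vts1 deletion in BMA64, which is a W303-derived laboratory yeast, and the other 2 arrays came from BMA64 itself as wild type. Cells of both strains were grown at steady state at 30 °C in SD medium, a synthetic medium with glucose, and harvested at an optical density of 0.4. The treatment field of the labels is the same for all 5 arrays, naming VTS1 and a chemical transfection, with no further detail. The labels do not say whether lysine was in the medium, whether the deletion strain was a single clone, or whether the arrays came from separate cultures. The errors below therefore rest only on the spread between arrays, which may be technical. Each standard error is a moderated one, drawn largely from other probe sets of similar signal (9.02 prior against 3 residual degrees of freedom). It is not the spread of that gene alone.

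Fungi make lysine from alpha-ketoglutarate and acetyl-CoA. The early steps lengthen the carbon chain in mitochondria and end at alpha-ketoadipate, which an aminotransferase turns into alpha-aminoadipate. The late steps reduce alpha-aminoadipate and join it to glutamate as saccharopine, from which lysine is released. Lysine inhibits the first enzyme, homocitrate synthase, and the activator Lys14 raises transcription of pathway genes when an intermediate, the semialdehyde of alpha-aminoadipate, builds up. The general control factor Gcn4 acts on many amino acid genes when amino acids run short.

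VTS1 (YOR359W), the deleted gene, had signals of 19, 17.8 and 55 on the deletion arrays, against 4952.3 and 5079.9 on the wild type arrays. The background level of the arrays, taken from control probe sets with no target in yeast, lay between 98 and 166.71. STE2, the alpha-factor receptor of a cells, had a signal of 5076 ± 346 (SD, n = 3) in the deletion strain and 4941 ± 79.0 (SD, n = 2) in the wild type, while STE3, the a-factor receptor of alpha cells, had 191 ± 66.8 in the deletion strain and 194.0 ± 32.0 in the wild type. Across arrays the log2 signals of the same strain correlated at 0.981 to 0.990, and those of different strains at 0.960 to 0.969 (over 6294 probe sets, which are not independent replicates). In bulk RNA such as this, fewer cells of a kind and less RNA per cell cannot be told apart.

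The lysine genes differed in both directions between the strains. The homocitrate synthase genes LYS20 and LYS21 were lower on every deletion array than on either wild type array, as was LYS9, and LYS5 was higher. The other 5 genes, LYS4, LYS12, LYS2, LYS1 and LYS14, had overlapping groups. Of all probe sets tested, 21.7% were so separated with the deletion arrays lower and 16.8% with them higher. The differences ran from -0.55 to 0.42 on the log2 scale, with a median of -0.13, beside a median of -0.04 over all 6294 probe sets tested. In size, without regard to sign, the median was 0.27 for the 9 genes and 0.20 for all probe sets tested. All 9 genes lay above background on all 5 arrays and passed the filter on dim probe sets.

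**Figure D1:**
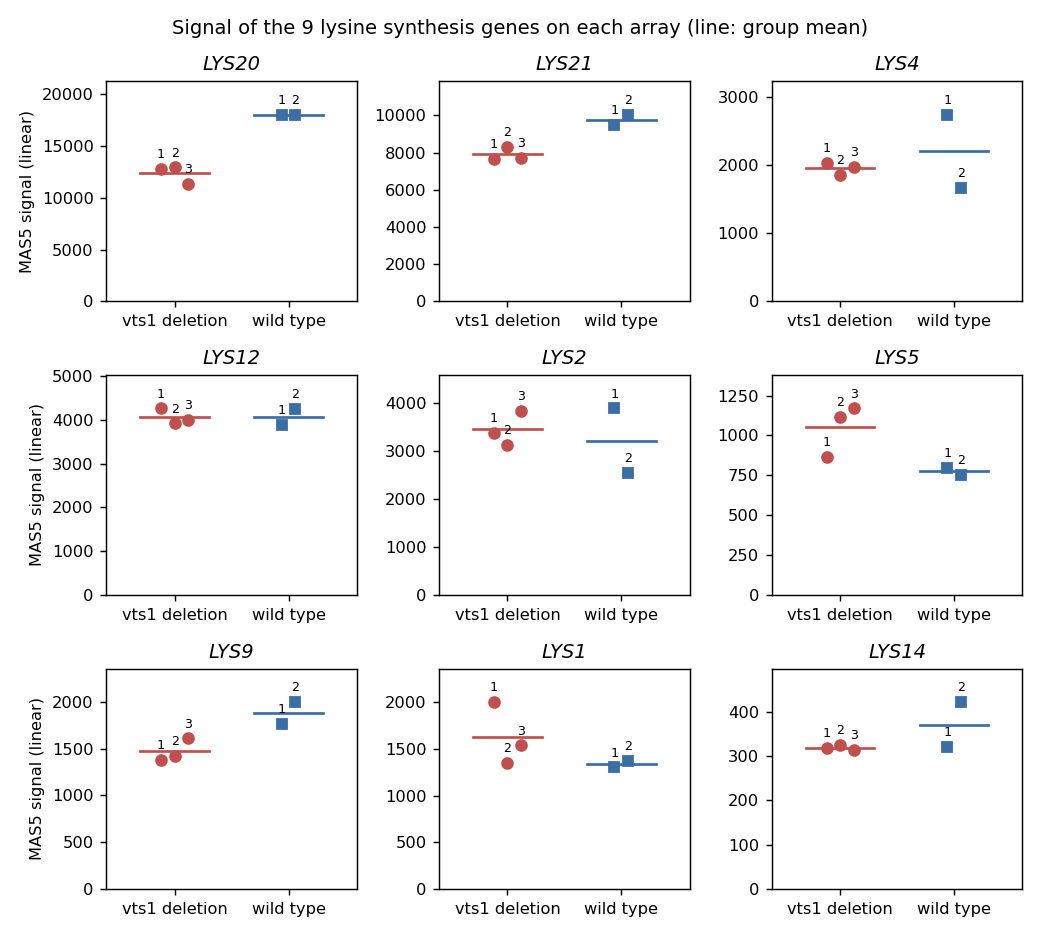
MAS5 signal on a linear scale (vertical axes, each starting at 0) of the 9 lysine synthesis genes, with 3 deletion arrays as circles, 2 wild type arrays as squares, replicate numbers beside the points and lines at the group means. LYS20, LYS21 and LYS9 were lower on all deletion arrays and LYS5 was higher, while the wild type arrays of LYS4 and LYS2 lie on both sides of the deletion arrays.

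LYS20 (YDL182W) encodes one of the isoenzymes of homocitrate synthase, which joins acetyl-CoA to alpha-ketoglutarate and commits carbon to lysine. Its signals were 12766, 12940.2 and 11357 on the deletion arrays, against 18044.2 and 17983.5 on the wild type arrays. The highest deletion array stayed well below both wild type arrays, which were almost equal to each other. The mean was 12354 ± 868 (SD, n = 3) in the deletion strain and 18014 ± 42.9 (SD, n = 2) in the wild type, a fold of 0.685 and a log2 difference of -0.55 ± 0.12 (SE). A difference of that size or larger, in either direction, was found for 11.3% of all probe sets tested. For the other genes whose groups did not overlap, the same share was 18.9% (LYS5), 25.4% (LYS9) and 31.7% (LYS21).

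LYS21 (YDL131W) encodes the other isoenzyme. It had signals of 7680, 8298.4 and 7724.8 on the deletion arrays, against 9505.7 and 10043.2 on the wild type arrays, and again the groups did not overlap. The log2 difference was -0.31 ± 0.11 (SE, n = 3 against 2), a fold of 0.808. The platform has a further probe set annotated to both isoenzyme genes, which cannot be assigned to one of them and was not counted. It read 15140.1, 13318 and 11381.3 on the deletion arrays, against 16179.9 and 17185.1 on the wild type arrays, with a log2 difference of -0.34 ± 0.13 (SE). All 3 probe sets for homocitrate synthase had every deletion array below every wild type array, as did 21.7% of all probe sets tested. LYS20 and LYS21 are related in sequence, and their probe sets may share signal.

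The next 2 early enzymes showed no such separation. LYS4 (YDR234W) encodes homoaconitase, an iron-sulfur enzyme of mitochondria that rearranges homocitrate. Its signals were 2029, 1848.3 and 1965.7 on the deletion arrays, against 2735.9 and 1666.8 on the wild type arrays. The deletion arrays lay close together, between 2 wild type arrays that stood 0.71 apart on the log2 scale, a gap matched or exceeded by 5.40% of the probe sets tested. The log2 difference between strains was -0.13 ± 0.19 (SE), and it became 0.22 without wild type replicate 1 and -0.49 without wild type replicate 2.

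LYS12 (YIL094C) encodes homoisocitrate dehydrogenase, which yields alpha-ketoadipate. It had signals of 4261.3, 3919.6 and 3998.3 on the deletion arrays, against 3890.5 and 4254.8 on the wild type arrays, and the groups overlapped over nearly their whole range. Its log2 difference was -0.0041 ± 0.12 (SE), with a 95% interval of -0.27 to 0.26.

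Among the late steps, LYS2 (YBR115C) encodes alpha-aminoadipate reductase. Its signals were 3380.3, 3142.2 and 3851.3 on the deletion arrays, against 3896.9 and 2549.8 on the wild type arrays. As for LYS4, wild type replicate 1 was the brightest of all arrays and wild type replicate 2 the dimmest, with a gap of 0.61 on the log2 scale that 8.26% of the probe sets tested reached. The log2 difference was 0.13 ± 0.18 (SE), 0.43 without wild type replicate 1 and -0.18 without wild type replicate 2, so its direction hung on a single array.

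LYS5 (YGL154C) encodes the phosphopantetheinyl transferase that activates the reductase Lys2. It had signals of 867, 1116.2 and 1169.3 on the deletion arrays, against 798.7 and 755.2 on the wild type arrays. Deletion replicate 1 was the closest to the wild type, and no deletion array fell below a wild type array. The log2 difference was 0.42 ± 0.18 (SE), a fold of 1.34, the highest of the 9 genes.

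The genes of the saccharopine steps had differences of opposite sign. LYS9 (YNR050C), the saccharopine dehydrogenase that joins the semialdehyde to glutamate, had signals of 1381.8, 1420.4 and 1608.6 on the deletion arrays, against 1762.8 and 1995.7 on the wild type arrays. Its groups did not overlap, with a log2 difference of -0.35 ± 0.15 (SE) and a fold of 0.782. LYS1 (YIR034C), the saccharopine dehydrogenase that releases lysine, had signals of 2001, 1354.4 and 1538.6 on the deletion arrays, against 1302.8 and 1375.1 on the wild type arrays. Deletion replicate 1 stood above the rest and deletion replicate 2 lay between the wild type arrays. The log2 difference of LYS1 was 0.27 ± 0.18 (SE), and 0.11 without deletion replicate 1.

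The activator gene LYS14 (YDR034C) had signals of 318.2, 325.7 and 314.1 on the deletion arrays, against 320.3 and 421.8 on the wild type arrays. The 3 deletion arrays and wild type replicate 1 were nearly equal, and wild type replicate 2 alone was higher. Its log2 difference was -0.20 ± 0.27 (SE), the widest error of the set. With no variance trend in the fit that error was 0.16, below the 0.22 of LYS4. The difference of LYS14 was -0.40 without wild type replicate 1 and -0.0045 without wild type replicate 2.

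**Figure D2:**
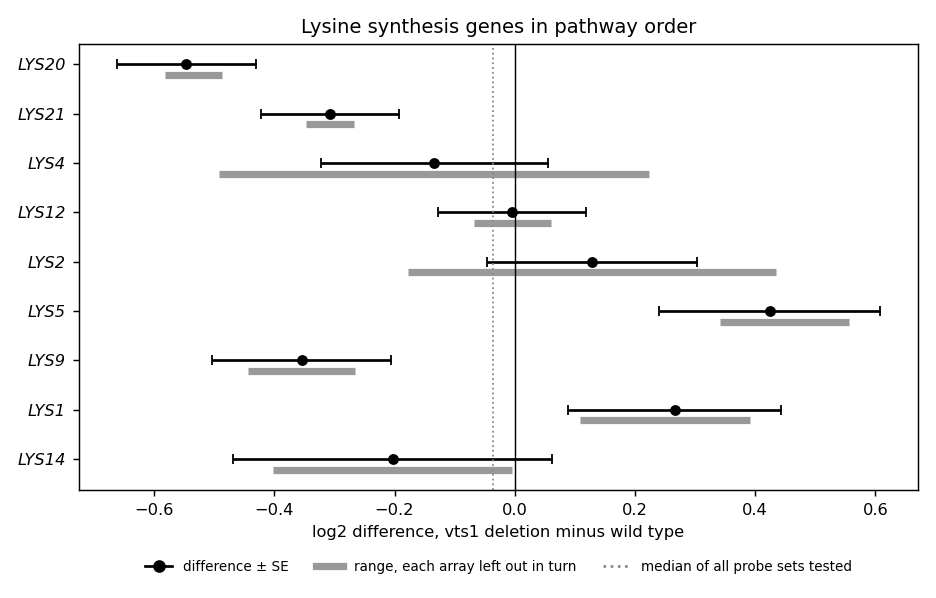
Log2 difference in signal, vts1 deletion minus wild type (horizontal axis), of the 9 genes in pathway order from the top, with the standard error (n = 3 against 2) as a thin bar and the range over fits that each leave out 1 array as a grey bar, and a dotted line at the median of all probe sets tested. The grey bars of LYS4, LYS12 and LYS2 cross 0, and those of LYS20, LYS21, LYS9, LYS5 and LYS1 do not, while that of LYS14 ends just short of it.

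Of the 9 genes, 1 (LYS20) was past an adjusted p of 0.05 and lower, where 3.05% of all probe sets tested were, and 0 were past it and higher, where 4.39% were (limma, Benjamini-Hochberg adjustment over 6294 probe sets). The groups did not overlap for 3 genes that were lower, where 21.7% of all probe sets were so separated, and for 1 gene that was higher, where 16.8% were. At an unadjusted p under 0.05 the counts were 3 lower and 1 higher. The share of all probe sets at that unadjusted level was not taken. Since the set was chosen with this contrast known, nothing is read from these counts or from the call of LYS20. That holds for its calls under the alternatives too. LYS20 was past the threshold under 12 of 18 alternatives and was no longer past it, for example, without wild type replicate 2 or without deletion replicate 3. LYS20 had the lowest difference of the 9 genes in all 18 alternatives, and LYS5 the highest in all but the fit without deletion replicate 2, where LYS1 did. Several of the 18, such as changes of floor, filter or variance settings, could not move a difference, so they say nothing of this order.

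**Figure D3:**
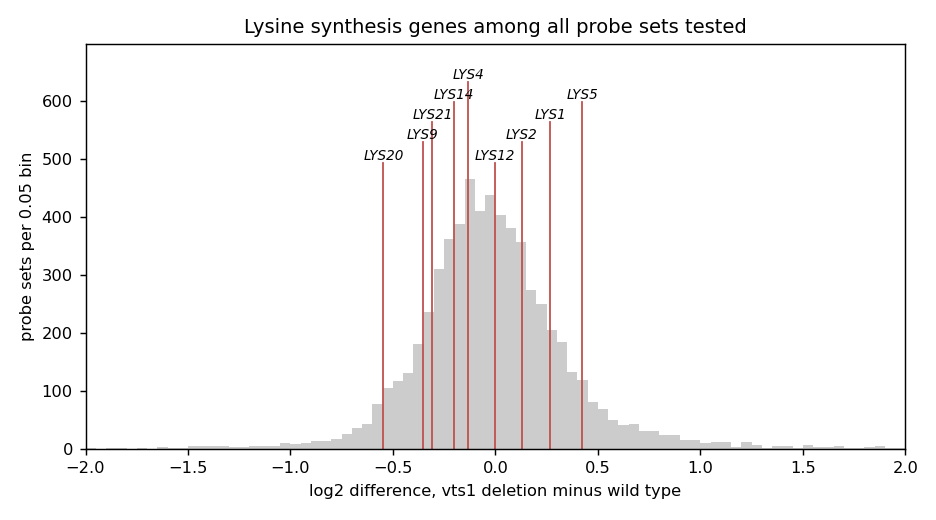
Histogram of the log2 difference, vts1 deletion minus wild type, over the 6294 probe sets tested (grey, probe sets per bin, drawn from -2 to 2), with red lines at the 9 lysine synthesis genes. The 9 genes lie between -0.55 (LYS20) and 0.42 (LYS5), and 11.3% of all probe sets tested had a difference at least as large in size as that of LYS20.

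Genes around the pathway that are not lysine genes by name were read from a list of 36, in 6 groups: shared steps and carriers, supply of precursors, regulators, factors for the iron-sulfur cluster, transport, and use of lysine in translation. Of these, 33 were tested, 5 rose (ARO9, CIT1, CIT2, ACO1 and IDH2) and 0 fell at an adjusted p of 0.05 (limma). Over all probe sets tested, 4.39% rose and 3.05% fell at that level. At an unadjusted p under 0.05 (limma), 10 of the listed genes were higher and 2 lower. The share of all probe sets at this unadjusted level was not taken, here or below. Such counts therefore cannot be read as more or fewer than among all probe sets. The median log2 difference of the 33 genes was 0.00. This list and the comparison pathways below were also chosen with earlier results of these data known. Their calls and adjusted p-values are therefore a description of the arrays. Without wild type replicate 1, 8 rose, with ODC1, IDP1 and GDH1 added.

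The group of genes that supply alpha-ketoglutarate and glutamate held 4 of the 5 increases. These were CIT2, CIT1, ACO1 and IDH2, and no gene of glutamate supply was among them. CIT2, the citrate synthase of peroxisomes and a target of the retrograde regulators Rtg1 and Rtg3, had signals of 3590.1, 3750 and 3525.8 on the deletion arrays, against 1886.5 and 1428.2 on the wild type arrays. All deletion arrays stood well above the wild type, and the log2 difference was 1.14 ± 0.15 (SE, adjusted p = 0.0004 from limma). CIT1, the mitochondrial citrate synthase, had signals of 9574.2, 10249.6 and 11109.1 on the deletion arrays, against 6227.6 and 6105.1 on the wild type arrays, a log2 difference of 0.74 ± 0.12 (adjusted p = 0.00182 from limma). Aconitase (ACO1) and the isocitrate dehydrogenase subunit gene IDH2, which lead from citrate to alpha-ketoglutarate, had folds of 2.21 and 2.14, with log2 differences of 1.15 ± 0.13 and 1.10 ± 0.11 (adjusted p = 0.00016 and 8.37e-05 from limma). With no filter on dim probe sets CIT2 and ACO1 lost their calls (adjusted p = 0.0589 and 0.0559 from limma), while CIT1 and IDH2 kept theirs. The remaining 5 genes of this group did not pass, among them IDP1, mitochondrial isocitrate dehydrogenase of the NADP type, at 0.49 ± 0.14 (adjusted p = 0.0511 from limma). Another was IDH1, the gene of the partner subunit of Idh2, at 0.47 ± 0.18 (adjusted p = 0.154 from limma). The rest were the glutamate genes GDH1, GLT1 and GDH3, at 0.36 ± 0.13, -0.10 ± 0.12 and -0.14 ± 0.26 (adjusted p = 0.120, 0.687 and 0.804 from limma). GDH1 was higher on all deletion arrays, while GLT1 and GDH3 had overlapping groups. The group's median log2 difference was 0.49.

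Around the aminotransferase step, ARO9 rose and ARO8 did not pass. ARO8 encodes the aminotransferase that forms alpha-aminoadipate as well as aromatic amino acids, and had signals of 22917.6, 22858.9 and 21866.7 on the deletion arrays, against 21127.8 and 23627.1 on the wild type arrays. ARO9, the aromatic aminotransferase used in breakdown of aromatic amino acids, had signals of 1070, 852.6 and 766.7 on the deletion arrays, against 306.8 and 215.8 on the wild type arrays. The lowest deletion array of ARO9 was far above the higher wild type array, and its log2 difference was 1.79 ± 0.24 (SE, adjusted p = 0.000498 from limma), a call lost without the filter on dim probe sets. ODC1, a mitochondrial carrier of alpha-ketoglutarate and alpha-ketoadipate, had signals of 704.2, 757.1 and 1024.2 on the deletion arrays, against 674.1 and 299 on the wild type arrays, and did not pass (log2 difference 0.86 ± 0.31, adjusted p = 0.122 from limma). Without wild type replicate 1 it did, with a log2 difference of 1.45 (adjusted p = 0.00647 from limma), while without wild type replicate 2 the difference was 0.28 (adjusted p = 0.688 from limma). It also passed after median centring (adjusted p = 0.0469 from limma).

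Of 6 regulators on the list, 0 passed in either direction (limma), and 1 had an unadjusted p under 0.05. GCN4, the general control activator, came closest, with signals of 24252.5, 24803 and 24017.9 on the deletion arrays, against 19563.3 and 19206.7 on the wild type arrays. The groups were well apart, but the log2 difference of 0.33 ± 0.11 did not pass (adjusted p = 0.100 from limma), except after cyclic loess normalization (adjusted p = 0.0452 from limma). Gcn4 is controlled mainly in translation, which these arrays do not measure. The other 5 regulators, MKS1, RTG1, RTG2, RTG3 and GCN2, had overlapping groups and log2 differences of -0.29 (RTG1) to 0.12 (GCN2). That of RTG1 was -0.54 without wild type replicate 1 and -0.041 without wild type replicate 2.

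The factors that homoaconitase depends on, the transporters and the lysyl-tRNA synthetases also had 0 calls among 13 genes tested (limma), where 2 had an unadjusted p under 0.05. Among the iron-sulfur and superoxide genes, CCS1, the copper chaperone of superoxide dismutase, had a log2 difference of -0.30 ± 0.12 and its client SOD1 one of 0.21 ± 0.12 (adjusted p = 0.183 and 0.327 from limma). The lysine permease gene LYP1 had signals of 6527.1, 7341.4 and 7996.7 on the deletion arrays, against 7382.6 and 7147 on the wild type arrays, with a log2 difference of 0.00 ± 0.12. CAN1, which carries arginine and lysine, and YPQ1, a vacuolar membrane transporter of basic amino acids, were lower on all deletion arrays than on any wild type array, at -0.38 ± 0.18 and -0.34 ± 0.14, without passing (adjusted p = 0.245 and 0.167 from limma). The difference of CAN1 was -0.20 without deletion replicate 1 and -0.52 without deletion replicate 3. The cytosolic lysyl-tRNA synthetase gene KRS1 had a log2 difference of 0.07 ± 0.12 and the mitochondrial MSK1 one of -0.13 ± 0.27, with overlapping groups.

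**Figure D4:**
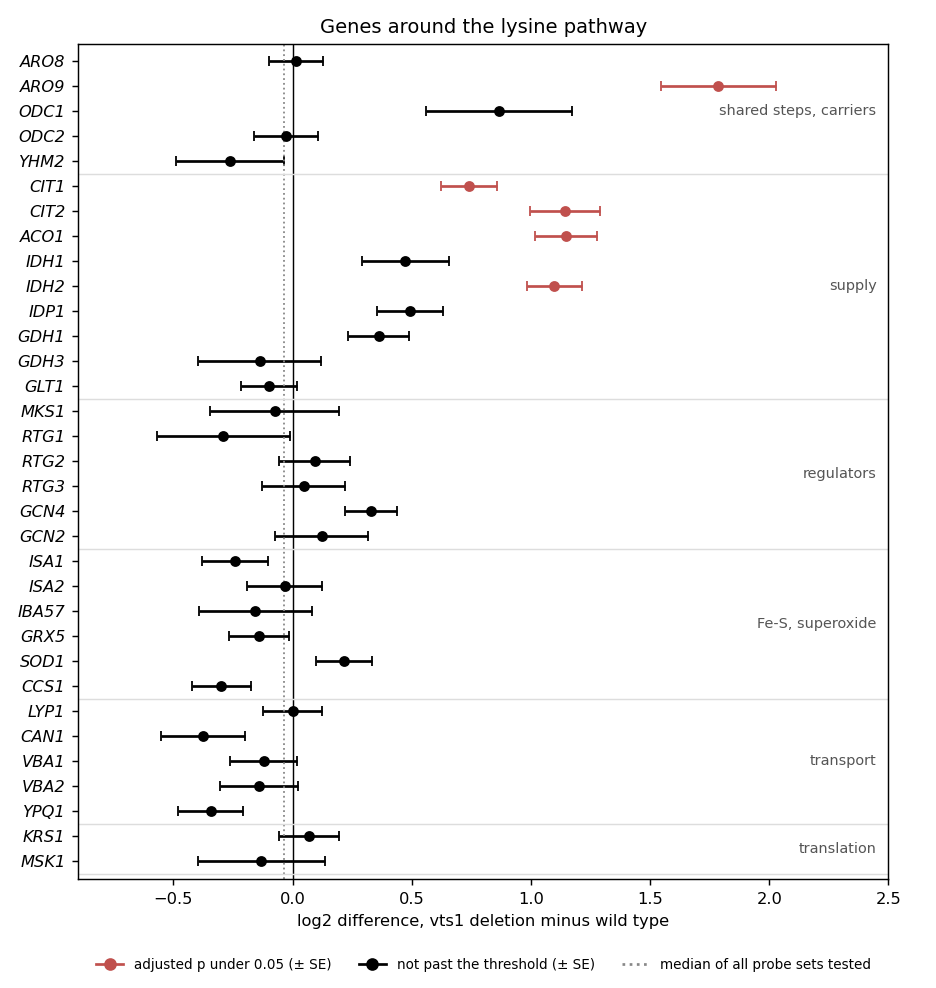
Log2 difference, vts1 deletion minus wild type, with its standard error (n = 3 against 2) for the 33 tested genes around the lysine pathway, in 6 groups from the top, with red points past an adjusted p of 0.05. The 5 red points are ARO9 and 4 supply genes, and no gene passed the threshold on the lower side.

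Arginine, histidine, branched-chain and aromatic amino acid synthesis were set beside that of lysine. The median log2 difference was -0.13 over the 9 lysine genes, 0.07 over 8 arginine genes, -0.0018 over 6 histidine genes, -0.12 over 10 branched-chain genes and -0.17 over 11 aromatic genes. The 5 medians were not tested against each other, and these lists too were chosen with earlier results known. The comparison pathways had 1 gene that rose and 3 that fell among 35 tested, beside the 4.39% that rose and 3.05% that fell of all probe sets. ARG4, argininosuccinate lyase, rose by 0.86 ± 0.11 (adjusted p = 0.000473 from limma), with signals of 13600.5, 13074.6 and 12169.6 on the deletion arrays, against 7300 and 6939.1 on the wild type arrays. ARG3 had a larger difference, 0.93 ± 0.29, without passing (adjusted p = 0.0808 from limma). HIS4 (-0.40 ± 0.13), HIS2 (0.33 ± 0.14), ARO4 (-0.35 ± 0.13) and TRP2 (-0.35 ± 0.14) did not pass either (adjusted p = 0.0847, 0.220, 0.125 and 0.165 from limma).

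The 3 that fell belong to the branched-chain pathway. LEU9, an isoenzyme of isopropylmalate synthase, catalyses a condensation of acetyl-CoA with a keto acid as homocitrate synthase does. Its signals were 2289.2, 2465.9 and 2100.5 on the deletion arrays, against 3154.9 and 3346.6 on the wild type arrays (log2 difference -0.51 ± 0.13, adjusted p = 0.0378 from limma). The gene of the other isoenzyme, LEU4, was brighter and did not fall, with overlapping groups and a log2 difference of 0.12 ± 0.15 (adjusted p = 0.699 from limma). LEU1, isopropylmalate isomerase and a relative of aconitase, had a log2 difference of -0.51 ± 0.12, and ILV2, acetolactate synthase, one of -0.53 ± 0.13 (adjusted p = 0.0232 and 0.0284 from limma). These 3 calls depended on single arrays. Leaving out wild type replicate 1 left 0, as did leaving out deletion replicate 3. Leaving out deletion replicate 1 left LEU1, and leaving out deletion replicate 2 left ILV2. With wild type replicate 2 left out, LEU1 and HIS4, of histidine synthesis, were past the threshold and lower.

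**Figure D5:**
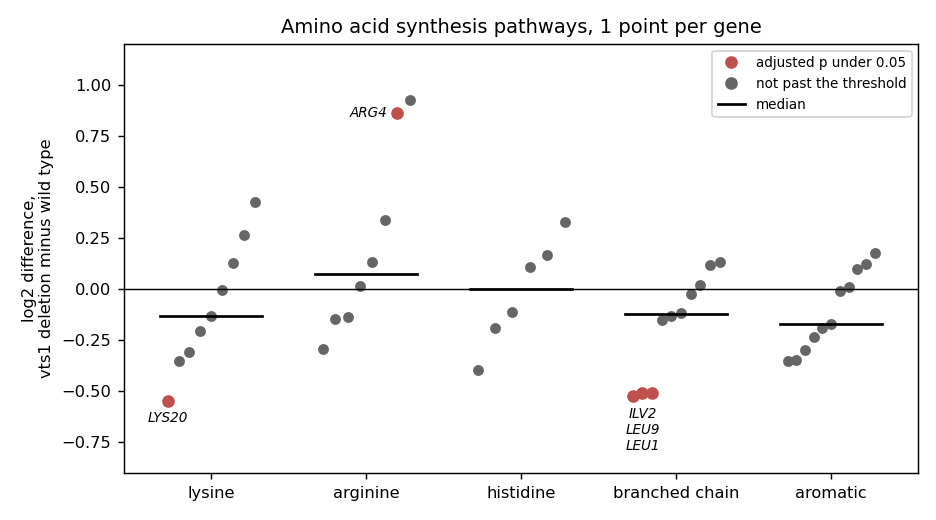
Log2 difference, vts1 deletion minus wild type (vertical axis), of each tested gene of 5 amino acid pathways, with the median of each pathway as a bar and genes past an adjusted p of 0.05 in red and named. The medians lie between -0.17 (aromatic) and 0.07 (arginine), and the lysine genes spread from -0.55 to 0.42.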

How the data were processed

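Total RNA of 3 vts1 deletion arrays and 2 wild type arrays was analysed from the deposited table, whose 9335 probe sets hold signal intensity on a linear scale. The submitters' processing notes name MAS5; its version and target are not given there. The authors had scaled each array, as the values show (means trimmed by 2% at each end of 2502.47 to 2502.68), so no further scaling was done and a change in total mRNA per cell would not be seen. Gene names came from the platform annotation, updated through RefSeq gene identifiers.

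Control probe sets (60) were left out, and signals were raised to a floor of 50.1 and put on the log2 scale. A mean of at least 250.3 over the 5 arrays was required, which left 6294 probe sets, and these were fitted with limma 3.58.1 in R 4.3.3 (lmFit, then eBayes with a variance trend, group as the only term), with two-sided p-values adjusted after Benjamini-Hochberg over all of them. Log2 differences are deletion minus wild type, and a gene with several probe sets was read from the brightest. Precision is limited by how few arrays there are. The procedure was run on simulated independent arrays, where recovery was required only for changes much larger than those of the lysine genes. That run was not used to judge effects of the size seen here. In addition, 18 alternatives were run.

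The 9 genes and all lists were chosen with earlier results of these data known. Genes named are the 9, those around the pathway that passed or had the 2 smallest p-values of their group, the 2 smallest of each comparison pathway, and VTS1, STE2 and STE3. ARO8, LYP1, LEU9, LEU4, IDH1, GDH1, GLT1, GDH3 and genes named only beside a count or range were added once their values had been seen. HIS3, LEU2 and TRP1 were left out because such laboratory strains carry alleles of them. Some listed genes were not analysed here, ALP1 was too dim to test, and a planned look at promoter and protein sequences was not made. The labels state no pairing of arrays by number. Deviations from the group means correlated at -0.066 and -0.074 between arrays of equal number. With only 2 wild type arrays their deviations mirror each other, so these values share a single contrast and cannot settle whether arrays were paired.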

Additional observations from a re-analysis of the deposited data

How the results depend on the processing

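LYS20 kept a negative difference under all 18 alternatives, from -0.58 to -0.49, and so did LYS21 (-0.35 to -0.27) and LYS9 (-0.44 to -0.26), while LYS5 kept a positive one (0.34 to 0.56). Only the normalizations, the array weights, the replicate block and the arrays left out could move these differences. The replicate block gave the same differences as leaving out deletion replicate 3. The number of lysine genes past the threshold and lower was 1. It was 0 with no filter on dim probe sets, with no variance trend, against a 1.2-fold minimum and with the replicate block, and 0 to 1 with each array left out. Their median, -0.13, was -0.091 after quantile normalization, -0.078 after cyclic loess, -0.069 with the stricter filter (which drops LYS14), and -0.18 to -0.069 with each array left out. Over all probe sets, 276 rose and 192 fell. These counts were 54 and 51 with no filter, 146 and 54 against a 1.2-fold minimum, 149 and 69 with the replicate block, and 175 to 318 and 95 to 165 with each array left out. With no variance trend 106 fell. The 5 increases around the pathway became 2 with no filter (CIT1 and IDH2) and 5 to 8 with each array left out. The 3 decreases in the comparison pathways became 0 with no filter, with no variance trend, against a 1.2-fold minimum and with the replicate block, and 0 to 2 with each array left out. ARO8, LYP1, MSK1 and KRS1, all near 0 and without a call, changed sign. ARO8 had -0.037 after quantile normalization and -0.068 to 0.094 with arrays left out. LYP1 had 0.012 after quantile normalization, 0.024 after median centring, 0.025 after cyclic loess, 0.017 with array weights and -0.069 to 0.077 with arrays left out. MSK1 had 0.033 with array weights and -0.44 to 0.17 with arrays left out, and KRS1 -0.091 to 0.23. The cause of these shifts was not tested.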
